A study of Mus musculus with 24 samples.

Results

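The comparison described here is the interaction of the Rps6 and Trp53 genotypes in mouse forelimbs: how far the change seen with 1 Rps6 allele deleted differed between limbs with and without Trp53. It draws on all 24 libraries of the series, chosen by genotype label alone, 12 of RNA and 12 of ribosome-protected fragments (RPF, the stretches of mRNA covered by ribosomes). Forelimbs were taken at stage E10.5 and fell into 4 genotypes of 3 pools each, every pool holding the limbs of 2 embryos of the same genotype. The controls, Rps6lox/+;Trp53+/+, carry the floxed Rps6 allele without Cre and are called Rps6 WT, Trp53 WT. Their counterparts with Cre, Prx1Cre;Rps6lox/+;Trp53+/+, are called Rps6 het, Trp53 WT. The same pair of Rps6 genotypes on a Trp53 null background are Rps6lox/+;Trp53-/-, called Rps6 WT, Trp53 null, and Prx1Cre;Rps6lox/+;Trp53-/-, called Rps6 het, Trp53 null. Every embryo therefore carried 1 floxed Rps6 allele, and Cre was present only in the Rps6 het genotypes, so that the Cre transgene and the loss of the allele cannot be told apart. Prx1Cre drives Cre recombinase in limb bud mesenchyme, whereas the libraries were made from whole forelimbs, and the Trp53 null allele was present in all cells. In such bulk material, fewer cells of a type and less RNA per cell cannot be told apart.

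The product of Rps6 is part of the small subunit of the ribosome, and loss of an allele of a ribosomal protein gene can leave unassembled ribosomal proteins that bind Mdm2, the ubiquitin ligase that keeps p53 low. The p53 protein, encoded by Trp53, is a transcription factor that induces genes of cell cycle arrest, DNA repair and cell death and also feeds into the control of protein synthesis. Ribosome profiling sequences the fragments protected by ribosomes, and the ratio of footprints to RNA of a transcript, its translational efficiency (TE), measures how densely the transcript is occupied by ribosomes.

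The interaction was computed as the log2 change from Rps6 WT to Rps6 het in Trp53 WT less the same change in Trp53 null. A positive value means that the change was more positive in Trp53 WT, and a negative value that it was more negative there. A transcript is called where the Benjamini-Hochberg adjusted p of edgeR's quasi-likelihood test was under 0.05. Library totals were 14291854 to 29104669 counts for RNA and 7026056 to 16835045 for RPF, so that 3 counts, taken as the detection floor, equal 0.103 to 0.21 CPM (counts scaled to a common library total) for RNA libraries and, for RPF libraries, 0.178 to 0.427 CPM. Such floors cover counting error only. Rows of the count table are Ensembl transcript IDs, of which 0 of 21960 matched the gene tables used here. Transcripts are therefore given by ID, and the levels of Rps6 and Trp53, marker genes of the limb mesenchyme and the planned gene lists were not analysed here.

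In RNA, 1376 of 14411 transcripts tested (9.55%) had a called interaction, 730 positive (5.07%) and 646 negative (4.48%). Which direction had more calls depended on the setting: the split was 700 positive and 711 negative with DESeq2's size factors, 706 and 736 with DESeq2's test, 397 and 417 without Rps6 het, Trp53 WT pool 3, and 756 and 771 without Rps6 WT, Trp53 null pool 3. The call count rested on few pools per genotype, and 6 of the pools changed it by more than 1.5 times when left out. It was 641 without Rps6 het, Trp53 WT pool 1, 814 without pool 3 of that genotype, 650 without Rps6 WT, Trp53 WT pool 3, 770 and 692 without Rps6 WT, Trp53 null pools 1 and 2, and 745 without Rps6 het, Trp53 null pool 3. At an unadjusted p under 0.05 the count was 3879 (26.9%), split into 2078 positive and 1801 negative transcripts. Most called interactions were small. Their median absolute size was 0.44 on the log2 scale, 807 of the 1376 (58.6%) were under 0.5, and the smallest was 0.19. Positive calls reached further, with a median of 0.49 against -0.38 for the negative calls. An absolute value over 1 was found in 141 positive and 58 negative calls, and one over 2 in 28 and 7. Over all transcripts tested the median absolute interaction was 0.17 beside a median standard error of 0.116, so that a typical single estimate was not separable from 0 at this depth and number of pools. The share of transcripts with a difference, estimated from the whole distribution of p-values (limma's convest estimate), was 46.4%, and 24.2% with no filter on low counts.

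In RPF, 857 of 12147 transcripts tested (7.06%) had a called interaction, 479 positive (3.94%) and 378 negative (3.11%). The split was 421 and 426 with upper-quartile scaling and 392 and 236 with DESeq2's test. At an unadjusted p under 0.05 there were 2527 (20.8%), of which 1319 were positive and 1208 negative. Here 4 pools changed the call count by more than 1.5 times when left out: it was 513 without Rps6 het, Trp53 null pool 3, 523 without Rps6 WT, Trp53 WT pool 3, 548 without Rps6 WT, Trp53 null pool 2 and 557 without Rps6 het, Trp53 WT pool 2. Sizes were again small, with a median absolute value of 0.36 among the calls and 578 of the 857 (67.4%) under 0.5. The negative calls had a median of -0.43 and the positive calls one of 0.32. An absolute value over 1 was found in 46 positive and 52 negative calls, and one over 2 in 16 and 5. The estimated share of transcripts with a difference was 33.7%, which fell to 17.1% with DESeq2's test and to 17.2% with no filter on low counts.

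**Figure D1:**
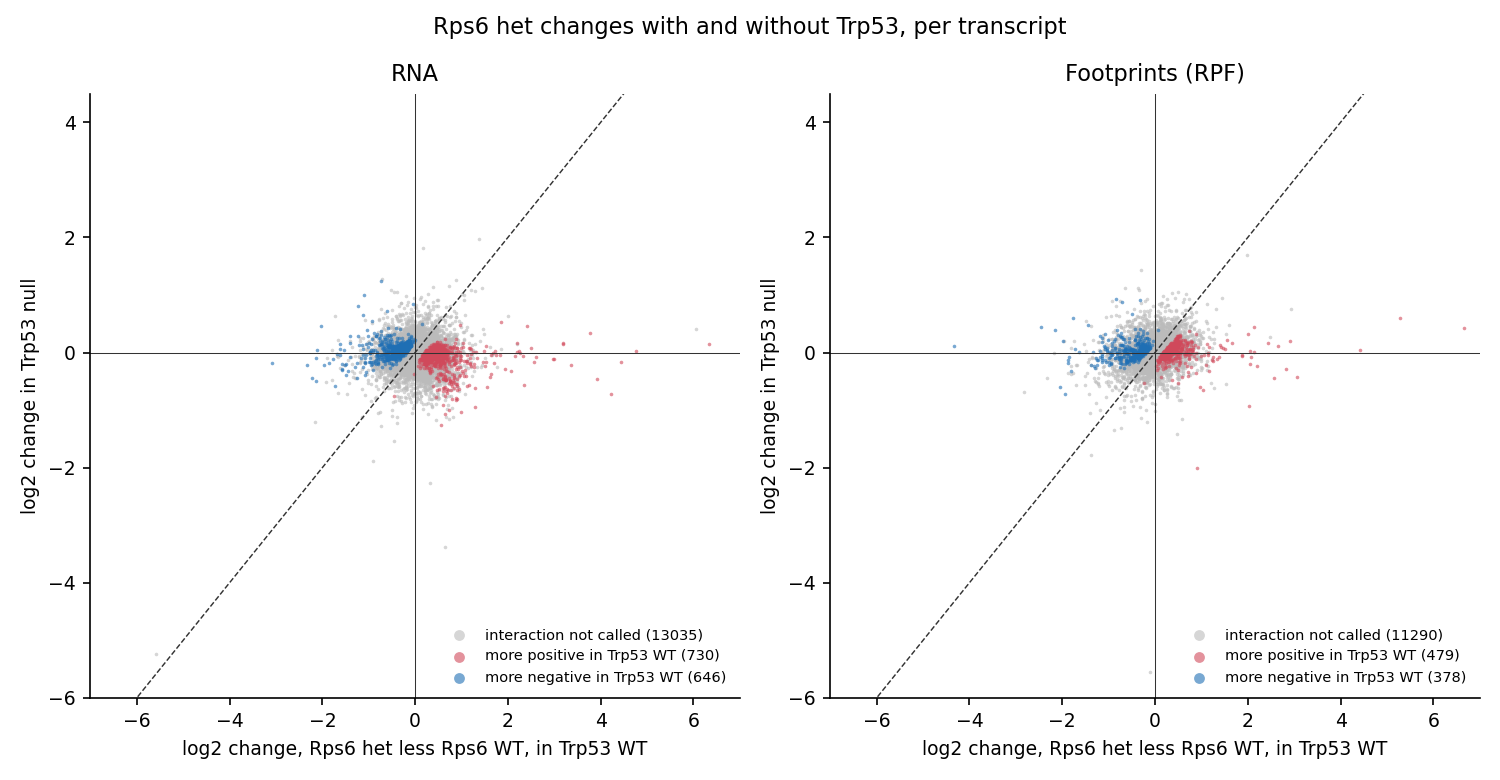
Each point is a transcript, with the log2 change from Rps6 WT to Rps6 het in Trp53 WT on the x axis and the same change in Trp53 null on the y axis, for RNA (left) and RPF (right); the dashed line marks equal changes. Called interactions (red, positive; blue, negative) spread along the x axis to more than 6 log2 units, and most lie closer to 0 on the y axis. In 81 of the 1376 RNA calls and 42 of the 857 RPF calls the change in Trp53 null was the larger in absolute size.

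The called interactions were mostly differences of a single genotype from the other 3. Among the 730 positive RNA calls the median change in Rps6 het limbs was 0.46 in Trp53 WT and -0.06 in Trp53 null, and among the 646 negative calls it was -0.35 and 0.05. In RPF these medians were 0.37 and 0.02 for positive calls and -0.42 and 0.02 for negative calls. Of the 1376 RNA calls, 1279 were also called for the Rps6 change in Trp53 WT (background 24.8% of transcripts tested), whereas 3 were called for that change in Trp53 null (background 0.0694%). The corresponding RPF counts were 808 (background 24.9%) and 42 (background 0.906%) of 857. Seen the other way, loss of Trp53 in Rps6 het limbs was called for 1011 of the RNA calls (background 13.3%) and 801 of the RPF calls (background 15.1%). In Rps6 WT limbs, Trp53 loss was called for 9 (background 0.118%) and 5 (background 0.0741%) of them. These contrasts are made of the same group means as the interaction, so the counts describe its shape and do not support it.

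The genotype farthest from the median of the 4 group means was Rps6 het, Trp53 WT in 1081 of the 1376 RNA calls (78.6%, against 46% of all transcripts tested). In RPF it was Rps6 het, Trp53 WT in 798 of the 857 calls (93.1%, against 53.5%). The 3 pools of that genotype lay outside the range of the other 9, on the side of the interaction, for 938 RNA calls (68.2%, background 17.5%) and 731 RPF calls (85.3%, background 18.5%). The RNA count was 549 without Rps6 het, Trp53 WT pool 1, 517 without Rps6 WT, Trp53 WT pool 3, 612 and 591 without Rps6 WT, Trp53 null pools 1 and 2 and 608 without Rps6 het, Trp53 null pool 3. The RPF count was 463 without Rps6 WT, Trp53 WT pool 3 and 473 without Rps6 het, Trp53 null pool 3. Calls were chosen by a contrast of these same pools. The shares of calls with the pools outside, and of the farthest genotype, therefore exceed their backgrounds in part through the choice. The Rps6 WT, Trp53 WT control was the farthest genotype in 214 RNA calls (15.6%, against 21.5% of all tested) and in 17 RPF calls (1.98%, against 15.5%). An unadjusted p under 0.05 for Trp53 loss in Rps6 WT limbs was found for 534 of the 1376 RNA calls (background 14.8%) and 93 of the 857 RPF calls (background 4.07%). The median RNA change with Trp53 loss in Rps6 WT limbs was 0.13 among positive calls and -0.11 among negative calls, opposite in sign to that in Rps6 het limbs (-0.32 and 0.28). The interaction equals the Trp53 change in Rps6 WT limbs less that in Rps6 het limbs. These opposite signs, and the counts of Trp53 changes in Rps6 WT limbs, thus follow in part from the choice of called transcripts.

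The Rps6 change in Trp53 null did not always point the same way as in Trp53 WT. It had an unadjusted p under 0.05 in 255 of the 1376 RNA calls (background 11.3% of all tested), in the opposite direction to Trp53 WT in 199 (14.5%, background 4.29%) and in the same direction in 56 (4.07%, background 6.99%). In RPF it had one in 218 of the 857 calls (background 12%), opposite in 87 (10.2%, background 2.63%) and in the same direction in 131 (15.3%, background 9.33%). An interaction is larger where the 2 changes oppose each other, so the shares follow in part from the choice of called transcripts. In RNA the share of opposite changes moved with single Trp53 null pools. It was 8.46% without Rps6 het, Trp53 null pool 3, 9.25% without Rps6 WT, Trp53 null pool 2, 27.1% without Rps6 het, Trp53 null pool 2 and 25.2% without Rps6 WT, Trp53 null pool 3. The RPF share of opposite changes lay between 7.41% and 13.9% when each Trp53 null pool was left out in turn. Opposite changes then outnumbered those in the same direction without Rps6 het, Trp53 null pool 2 (129 and 97) and without Rps6 WT, Trp53 null pool 3 (84 and 75). Without Rps6 het, Trp53 null pool 3 and Rps6 WT, Trp53 null pool 2 together, a setting chosen after earlier results were seen, 434 RNA and 363 RPF interactions were called, 428 and 355 of them among the calls with all pools.

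Among the transcripts called positive in both RNA and RPF and ranked by the larger of their 2 p-values, ENSMUST00000020576.7 stood first. Its RNA level was 49.1, 47.1 and 50.1 CPM in the 3 pools of Rps6 WT, Trp53 WT and 423, 478 and 435 CPM in Rps6 het, Trp53 WT. In Trp53 null it was 33.6, 35.9 and 34.6 CPM in Rps6 WT and 38.7, 36.3 and 39.4 CPM in Rps6 het. The pools of Rps6 het, Trp53 WT were thus far above all others, and the 2 Trp53 null groups did not overlap with the control either, lying below it. Its RPF level was 6.96, 6.54 and 7.3 CPM in Rps6 WT, Trp53 WT and 51.1, 60.2 and 63.6 CPM in Rps6 het, Trp53 WT. Without Trp53 it was 5.55, 6.35 and 6.63 CPM in Rps6 WT and 4.29, 4.73 and 4.74 CPM in Rps6 het. Footprints thus repeated the rise in Rps6 het, Trp53 WT, while in Trp53 null the Rps6 het pools lay below the Rps6 WT pools. The interaction was 3.05 ± 0.0791 (SE) in RNA (edgeR adjusted p = 9.08e-13) and 3.49 ± 0.185 in RPF (edgeR adjusted p = 8.9e-13). The difference between these, its TE interaction, was 0.45 ± 0.185 and was not called (edgeR adjusted p = 0.435).

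By the same rule, ENSMUST00000000476.14 stood first among the transcripts called negative in both kinds of library. Its RNA level was 601, 616 and 644 CPM in Rps6 WT, Trp53 WT and 298, 321 and 329 CPM in Rps6 het, Trp53 WT. In Trp53 null it was 572, 553 and 617 CPM in Rps6 WT and 565, 547 and 612 CPM in Rps6 het, so that these 2 groups overlapped throughout. Its RPF level was 636, 667 and 697 CPM in Rps6 WT, Trp53 WT and 332, 340 and 351 CPM in Rps6 het, Trp53 WT. In Trp53 null its footprints were at 652, 662 and 663 CPM in Rps6 WT and at 636, 589 and 652 CPM in Rps6 het. In both kinds of library the 3 Rps6 het, Trp53 WT pools were the lowest of the 12. The interaction was -0.96 ± 0.0793 in RNA (edgeR adjusted p = 1.83e-06) and -0.89 ± 0.0582 in RPF (edgeR adjusted p = 6.04e-11), and its TE interaction of 0.07 ± 0.0735 was not called (edgeR adjusted p = 0.884).

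**Figure D2:**
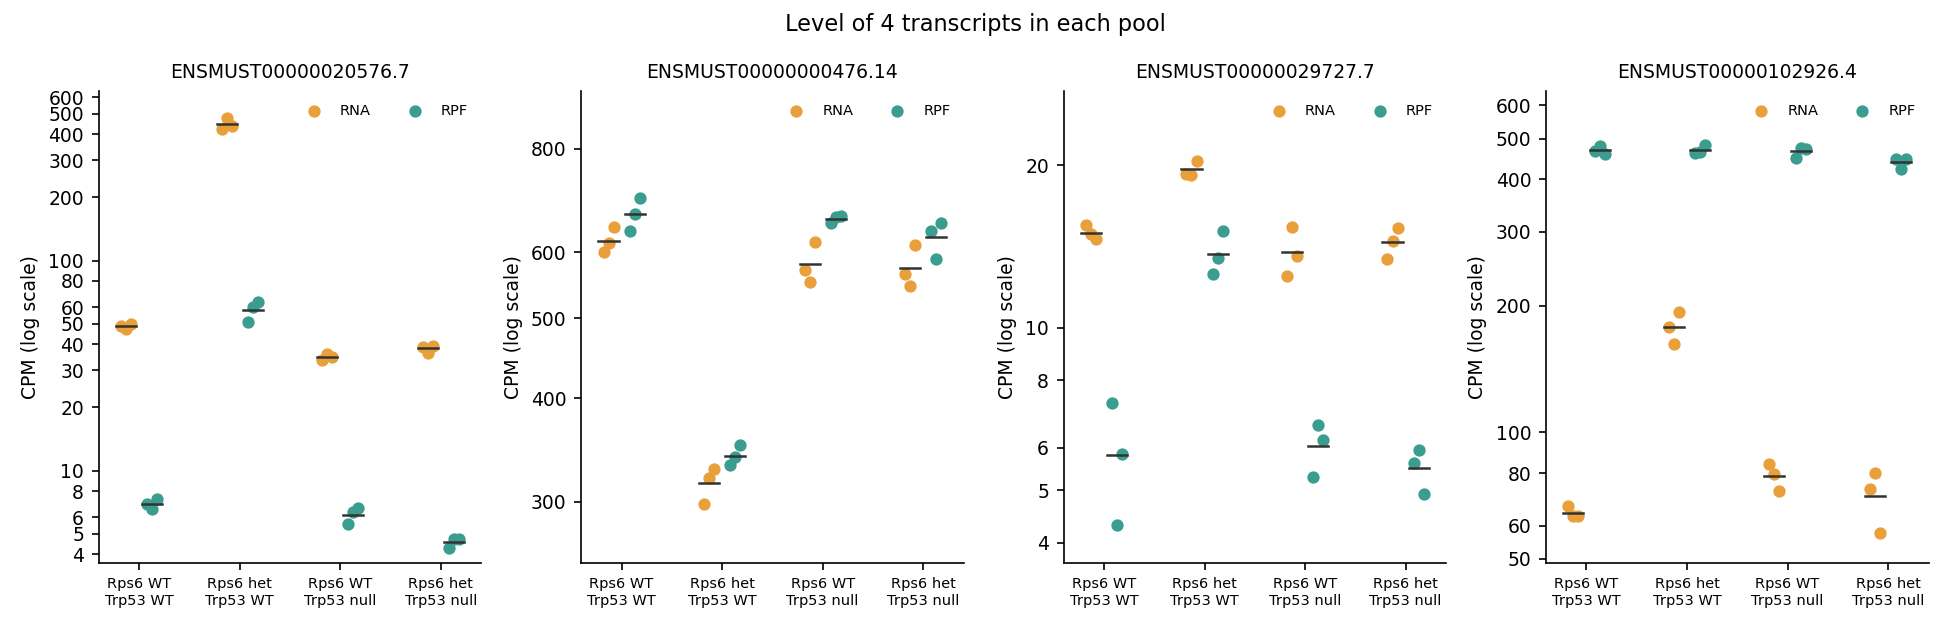
Levels in CPM (log axis) of the 4 named transcripts in each pool, with RNA in orange, RPF in green and group means as bars. In Rps6 het, Trp53 WT the first transcript is at its highest and the second at its lowest in both kinds of library, whereas in the last, mean RNA is 64.4 CPM in the control and 178 CPM in Rps6 het, Trp53 WT beside a mean RPF of 469 CPM in both.

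Where an interaction was called in both RNA and RPF it had the same direction in all but 1 transcript. The libraries share pools and lysates, so the following are descriptions across transcripts, which are not independent replicates. Over the 12116 transcripts tested in both, Pearson's r between the interactions was 0.638 and Spearman's rho 0.525, and 69.9% had the same sign. Without a filter on low counts r dropped to 0.107, and when each pool was left out in turn it was 0.589 to 0.631. Of these transcripts, 1258 were called in RNA and 856 in RPF, while 118 other RNA calls were not tested in RPF. RNA and RPF were both called in 451 transcripts. These were 35.9% of the 1258 RNA calls (background 7.06% of all tested in RPF) and 52.7% of the 856 RPF calls (background 9.55% of all tested in RNA). The direction was the same in 450 of them, 259 positive and 191 negative. The remaining transcript had a positive RNA interaction of 0.5 and a negative RPF interaction of -0.31. The 450 fell to 245 without Rps6 het, Trp53 WT pool 1, to 227 without Rps6 WT, Trp53 WT pool 3, to 250 without Rps6 WT, Trp53 null pool 2 and to 261 without Rps6 het, Trp53 null pool 3. A further 807 transcripts were called in RNA only (378 positive, 429 negative) and 405 in RPF only (219 positive, 186 negative). A call in 1 kind only does not show that the kinds differ, and that difference is tested by the TE interaction described further on.

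**Figure D3:**
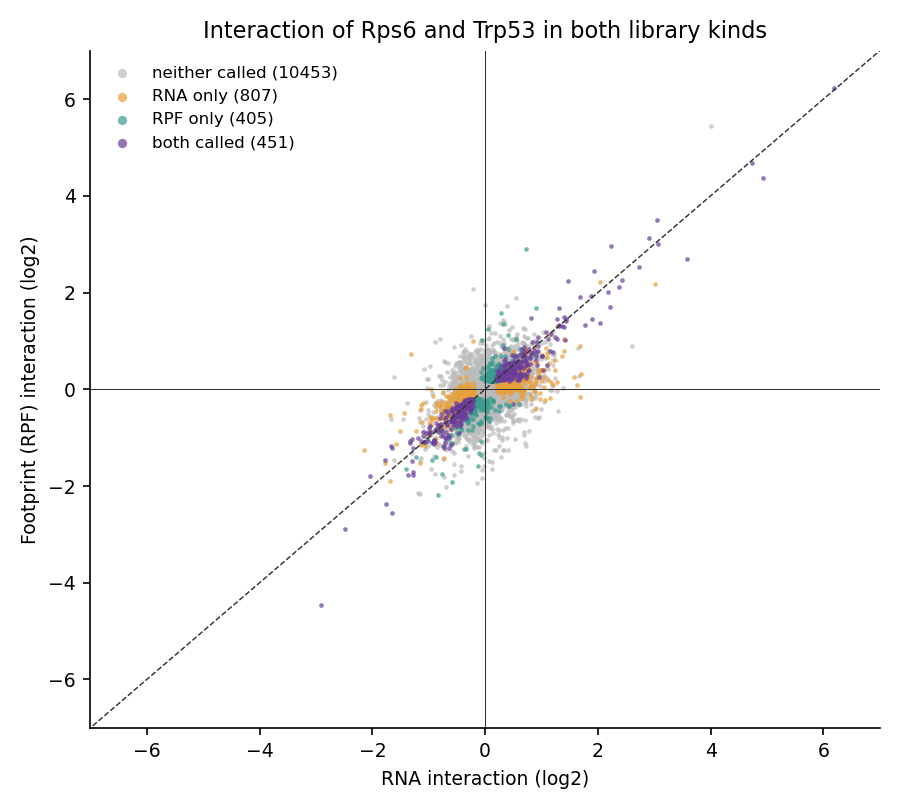
RNA interaction (x axis, log2) against RPF interaction (y axis, log2) for 12116 transcripts, coloured by the kind of library in which it was called; the dashed line marks equality. The 451 transcripts called in both (purple) follow the line out to a value above 6, and those called in RNA only (orange) lie closer to the x axis.

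Among transcripts tested in both kinds, calls made in one kind of library mostly kept their direction in the other, at reduced size. The 638 transcripts called positive in RNA had a median RNA interaction of 0.44 and a median RPF interaction of 0.25, and 584 of them (91.5%) were positive in RPF. The 620 called negative in RNA had medians of -0.38 in RNA and -0.27 in RPF, with 590 (95.2%) negative in RPF. Chosen on RPF instead, the 478 positive calls had a median of 0.32 in RPF and 0.3 in RNA, and 470 (98.3%) had the same sign. The 378 negative RPF calls had medians of -0.43 and -0.33, and 347 (91.8%) had the same sign. The interaction was larger in RPF than in RNA for 100 of the 638 positive and 158 of the 620 negative RNA calls. It was larger in RNA than in RPF for 202 of the 478 positive and 98 of the 378 negative RPF calls. A transcript is called partly for its size in that kind of library, so a smaller median in the other kind follows in part from the choice.

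Among RNA calls that were also tested in RPF, the larger an interaction was, the more often RPF was called as well. The 118 RNA calls not tested in RPF are left out of these classes. Among all RNA calls, 141 positive and 58 negative ones were over 1 in absolute size, so many of the larger positive calls were not tested in RPF. Over all transcripts tested in RPF, 3.94% were called positive and 3.11% negative. Positive RNA calls under 0.5 had a median RPF interaction of 0.21 and were called in RPF in 140 of 370 (37.8%). For RNA values of 0.5 to 1 the median was 0.31, with 78 of 199 called (39.2%), and for 1 to 2 it was 0.8, with 27 of 53 called (50.9%). Of the 28 positive RNA calls over 2, only 16 were tested in RPF. These 16 had a median RPF interaction of 2.62, and 14 of them (87.5%) were called. Among negative RNA calls, the medians in the same order of size were -0.21, -0.58, -1.08 and -2.34, and the called shares were 22.8% of 430, 45.6% of 147, 59% of 39 and 75% of 4. At an RNA size of 0.5 to 1 the median RPF interaction was thus 0.31 for positive calls and -0.58 for negative calls, while their RNA medians were nearly mirror images, 0.66 and -0.67. This asymmetry between the directions is a description, and no test of it was made.

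Measured pool by pool, transcripts called in one kind of library separated the Rps6 het, Trp53 WT pools in the other kind. The RPF levels of the 638 positive RNA calls had a median of 0.23, 0.23 and 0.17 log2 units above their mean over 12 pools in the 3 Rps6 het, Trp53 WT pools, and of -0.13 to -0.02 in the other 9. For the 620 negative RNA calls these medians were -0.22, -0.23 and -0.16 in Rps6 het, Trp53 WT and 0.03 to 0.13 elsewhere. The RNA levels of the positive RPF calls lay at 0.21, 0.21 and 0.19 in Rps6 het, Trp53 WT and at -0.13 to -0.02 elsewhere. Those of the negative RPF calls lay at -0.25, -0.27 and -0.19 and at 0.02 to 0.15. In all 4 of these sets the 3 Rps6 het, Trp53 WT pools stood outside the range of the other 9, and the control pool 3 was the farthest from them. RNA and RPF of one pool come from the same lysates, so this does not amount to a repeat in separate embryos.

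**Figure D4:**
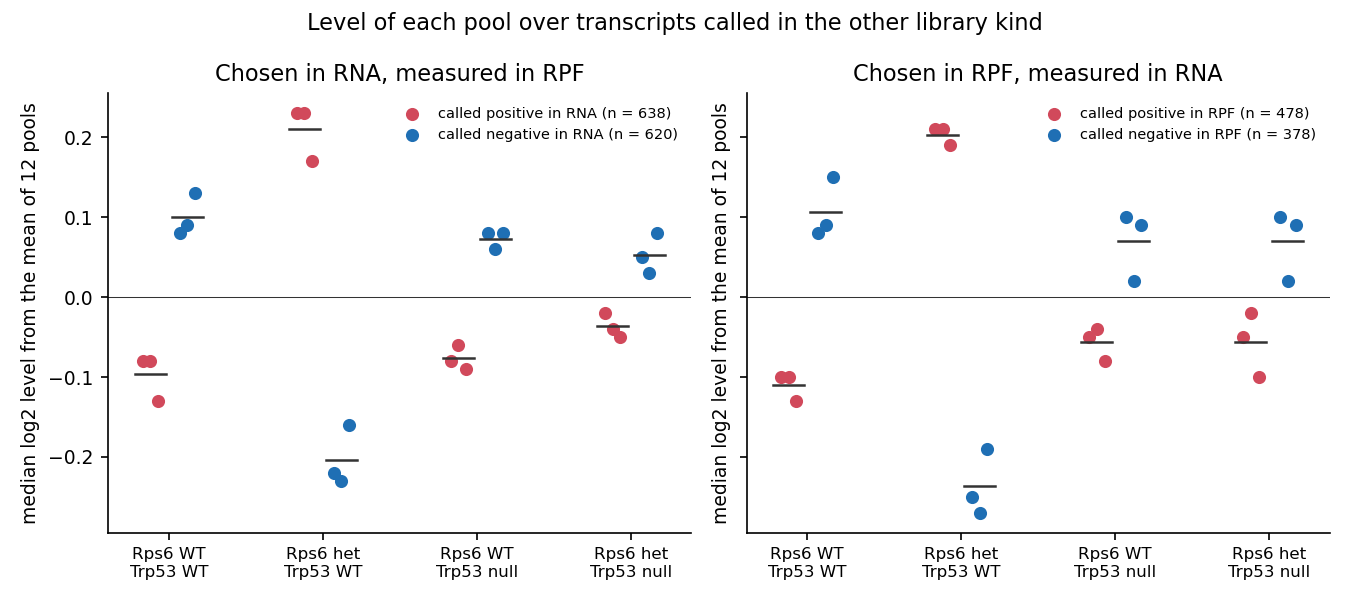
Each point is the median, over the transcripts of a set, of a pool's log2 level from the mean of the 12 pools; sets were chosen by the interaction in one kind of library and measured in the other, and bars are group means. The 3 Rps6 het, Trp53 WT pools lie at 0.17 to 0.23 for positive sets and at -0.27 to -0.16 for negative sets, and all other pools lie on the opposite side of 0.

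The chance of a call depended on the level of the transcript. With RNA transcripts put into 5 equal bins by mean level, the called share was 3.33%, 7.95%, 9.61%, 12.9% and 14% from the lowest to the highest, while the median standard error fell from 0.406 to 0.0703. The median size of a call went from 1.54 in the lowest bin to 0.31 in the highest. In RPF the called shares were 2.22%, 4.78%, 5.68%, 7.86% and 14.7%, with standard errors of 0.388 down to 0.0632 and sizes of 1.43 down to 0.26. Calls of weak transcripts are therefore the large interactions only, and small interactions at low levels were not detectable at this depth. The highest RPF bin, with a median level of 172 CPM, held 245 positive and 113 negative calls, whereas the lowest held 19 and 35. With upper-quartile scaling the highest bin held 214 and 131, and with DESeq2's size factors 247 and 112. Positive calls also outnumbered negative ones there in each refit without 1 pool, with 141 and 75 without Rps6 WT, Trp53 WT pool 3, 159 and 81 and 149 and 83 without Rps6 het, Trp53 WT pools 1 and 2, 153 and 81 without Rps6 WT, Trp53 null pool 2, and 149 and 70 without Rps6 het, Trp53 null pool 3. The highest RNA bin, with a median of 151 CPM, held 199 positive and 204 negative calls, and the lowest held 61 and 35. Since the size of a call depends on level, the median sizes of positive and negative calls given above do not compare the directions at equal level.

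The TE interaction, footprints less RNA with the 2 libraries of each pool kept together, was called for far fewer transcripts. Over all transcripts tested its median absolute size was 0.148, beside a median standard error of 0.166. The median standard error was 0.116 in RNA and 0.12 in RPF, so the call counts do not compare the kinds at equal precision. Of 14080 tested, 44 (0.312%) were called, 43 negative (0.305%) and 1 positive (0.0071%). At an unadjusted p under 0.05 there were 1294 (9.19%), with 834 negative and 460 positive. The convest share was 7.92% and varied from 0.453% with DESeq2 and 1.3% without the 2 Trp53 null pools named above to 15.4% with limma-voom and 15.7% for transcripts kept in both kinds of library. The called count was unstable. It was 10 without the pool term, all 10 among the 44 and all negative, 25 with DESeq2, 20 with limma-voom and 212 with no filter on low counts. Leaving out pools 1, 2 and 3 of Rps6 WT, Trp53 WT gave 26, 18 and 15 calls. Leaving out those of Rps6 het, Trp53 WT gave 18, 113 and 16, those of Rps6 het, Trp53 null gave 82, 143 and 29, and pools 1 and 2 of Rps6 WT, Trp53 null gave 15 and 17. Of the 44 calls, 32 lay in the highest of 5 bins of RPF level (1.14% of that bin), 1 in the bin above the lowest and 0 in the lowest, where the median standard error was 1.08.

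The 43 negative TE interactions ranged from -1.55 to -0.38 with a median of -0.62. Their median RNA interaction was 0.55 and their median RPF interaction -0.07. The RNA estimate was positive in 42 of the 43. In 28 the RNA interaction was itself called positive, and of these the RPF interaction was not called in 25, was called positive in 2 and was called negative in 1. A second, smaller set of 6 had a called negative RPF interaction with no call in RNA. The other 9 were called in neither kind. Taken by background, the median RNA change in Rps6 het limbs was 0.48 in Trp53 WT and -0.08 in Trp53 null, while the median RPF changes were -0.03 and 0. Median TE changed by -0.51 in Trp53 WT and by 0.1 in Trp53 null. The Rps6 change in TE was called in Trp53 WT for 42 of all 44 called transcripts (background 2.79%), and in Trp53 null for 0 of 44 (background 0.405%), where edgeR gave an unadjusted p under 0.05 for 8 (background 7.46%). Trp53 loss changed TE by call in 34 of the 44 in Rps6 het limbs (background 0.547%) and in 0 of the 44 in Rps6 WT limbs (background 0%), where edgeR gave an unadjusted p under 0.05 for 21 (background 8.32%). The TE of the 3 Rps6 het, Trp53 WT pools lay outside the range of the other 9 in 33 of the 44 (75%, background 4.24%). Refits without 1 pool gave 13 to 90 such transcripts, the lowest without Rps6 WT, Trp53 WT pool 3 and the highest without Rps6 het, Trp53 WT pool 2. The 44 were chosen on the same TE values, so these counts describe their shape and exceed the backgrounds in part through the choice. The TE and RNA values share the RNA libraries, so an RNA estimate that is high by error lowers the TE estimate of the same transcript.

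**Figure D5:**
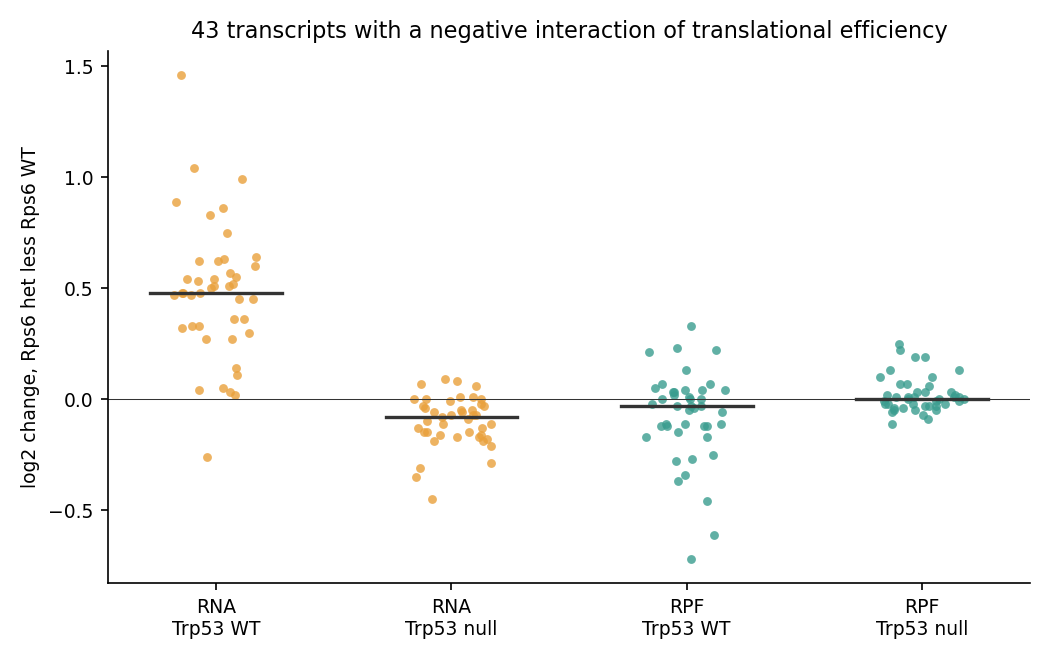
Log2 change from Rps6 WT to Rps6 het of the 43 transcripts with a called negative TE interaction (points) and their median (bar), for RNA and RPF in each Trp53 background. RNA in Trp53 WT stands apart with a median of 0.48, and the other 3 medians are -0.08, -0.03 and 0.

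Across the classes of RNA and RPF calls, the TE interaction followed the kind that was called. Transcripts with a positive RNA call only (378) had a median RNA interaction of 0.44, RPF of 0.16 and TE of -0.28, and 25 of them had a called negative TE interaction. At an unadjusted p under 0.05, with the called ones included, 187 had a negative TE interaction and 0 a positive one. The 429 with a negative RNA call only had a median RNA interaction of -0.34, RPF of -0.2 and TE of 0.14. None of these, 0 of 429 by edgeR, had a called TE interaction, and 72 had a positive one at an unadjusted p under 0.05. The 219 with a positive RPF call only had a median TE interaction of 0.13 with 1 call, and the 186 with a negative RPF call only had a median of -0.23 with 6 calls. Where both kinds were called in one direction, median TE interactions were -0.04 for the 259 positive and -0.02 for the 191 negative transcripts, with 2 and 0 calls. Since the classes were made from the same libraries as TE, their signs follow from the choice, and the counts are descriptions.

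ENSMUST00000102926.4 had the smallest p of the TE interactions. Its RNA level was 66.8, 63.3 and 63.2 CPM in Rps6 WT, Trp53 WT and 178, 162 and 193 CPM in Rps6 het, Trp53 WT. In Trp53 null it was 84.3, 79.5 and 72.6 CPM in Rps6 WT and 73.5, 80.2 and 57.6 CPM in Rps6 het. RNA was thus higher in the Rps6 het, Trp53 WT pools than in any other pool, and the Trp53 null groups overlapped. Its RPF level was 467, 480 and 459 CPM in Rps6 WT, Trp53 WT and 462, 465 and 482 CPM in Rps6 het, Trp53 WT. In Trp53 null it was 450, 474 and 473 CPM in Rps6 WT and 446, 423 and 447 CPM in Rps6 het, so that footprints did not follow the RNA. The log2 ratio of RPF to RNA in CPM was 2.86 ± 0.06 in Rps6 WT, Trp53 WT, 1.4 ± 0.1 in Rps6 het, Trp53 WT, 2.56 ± 0.14 in Rps6 WT, Trp53 null and 2.65 ± 0.28 in Rps6 het, Trp53 null (SD, n = 3 pools each). The interaction was 1.63 ± 0.135 (SE) in RNA (edgeR adjusted p = 1.83e-06), 0.09 ± 0.0529 in RPF (edgeR adjusted p = 0.353) and -1.55 ± 0.13 in TE (edgeR adjusted p = 7.42e-08).

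The only transcript with a called positive TE interaction, ENSMUST00000029727.7, was weakly expressed. Its RPF level was 7.27, 4.32 and 5.85 CPM in Rps6 WT, Trp53 WT and 12.6, 13.5 and 15.1 CPM in Rps6 het, Trp53 WT. In Trp53 null it was 5.3, 6.6 and 6.21 CPM in Rps6 WT and 5.61, 5.94 and 4.92 CPM in Rps6 het. Footprints were therefore highest in the Rps6 het, Trp53 WT pools, and the other groups overlapped. Its RNA level was 15.5, 14.9 and 14.6 CPM in Rps6 WT, Trp53 WT and 19.3, 19.2 and 20.4 CPM in Rps6 het, Trp53 WT, and in Trp53 null it was 12.5, 15.4 and 13.6 CPM in Rps6 WT and 13.4, 14.5 and 15.3 CPM in Rps6 het. RNA was also highest in the Rps6 het, Trp53 WT pools, by a smaller factor than RPF. The interaction was 0.32 ± 0.117 in RNA (edgeR adjusted p = 0.0921), 1.36 ± 0.216 in RPF (edgeR adjusted p = 0.000195) and 1.02 ± 0.22 in TE (edgeR adjusted p = 0.0377). The estimated TE interaction was 0.9 to 1.16 over the 23 refits that gave an adjusted p, but this p missed the threshold in 12 of them. DESeq2's test gave this transcript no adjusted p and is not among the 23, and it called 0 positive TE interactions. The 12 are listed in part here. They included the fit without the pool term (1.04, edgeR adjusted p = 0.173), limma-voom (1.02, limma adjusted p = 0.102) and the stricter threshold of 0.01. The call was also lost without any 1 of 8 pools, at estimates of 0.9 to 1.07: Rps6 WT, Trp53 WT pools 2 and 3, Rps6 het, Trp53 WT pools 1 and 3, each of the Rps6 WT, Trp53 null pools and Rps6 het, Trp53 null pool 3, where the edgeR adjusted p was 0.0736 to 0.145.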

How the data were processed

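RNA and ribosome-protected fragments of mouse forelimb pools were sequenced, and the authors deposited one table of raw counts per transcript, not normalized. The name of the table gives footprints as counts over coding sequence and RNA as total counts. It does not say whether total means the whole transcript, and the column headers do not give the counted region. The submitters' processing notes name Bowtie2, UMI-tools, GRCm38 and mm10 with no role or order, and the annotation release is not given in the sources used here. Of 21960 rows, 238 were 0 in every library and 5426 in every footprint library.

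Counts were fitted with edgeR 4.0.16 (R 4.3.3) by glmQLFit and glmQLFTest after filterByExpr by genotype (minimum count 10, total 15), with TMM factors within each kind of library. Values are therefore relative to the typical transcript of that kind. A shift in RNA, RPF or TE common to all transcripts was not measured. RNA and footprints were fitted apart, each with all 4 genotypes. TE was fitted on all 24 libraries with each of the 12 pools as a block, since footprints and RNA of a pool come from the same lysates. Deviations of a pool's 2 libraries from their group means correlated in every pool (0.116 to 0.394, mean 0.225), whereas those of equal numbers in different genotypes had a mean correlation of 0.0322 in RNA. The labels do not say whether a number marks a shared litter or day. Within a number, the column headers give the 8 libraries 8 different barcodes. Over the 24 pairs of replicates, Spearman's rho was 0.983 to 0.987 and chi-square per degree of freedom 1.78 to 17.1, so every pool was counted.

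Levels are CPM from TMM-scaled totals, and ± after a fitted value is its standard error. The scripts were tested on simulated data with 100 changed transcripts per size and comparison. These were a small part of the 14287 RNA, 12055 RPF and 13953 TE transcripts tested there. They were drawn only from transcripts with higher mean counts, so the shares recovered do not cover weak transcripts. RNA and RPF counts of a pool were simulated independently, unlike the real libraries, which share lysates. Of simulated interactions of 0.5 on the log2 scale, 59% were recovered in RNA, 65% in RPF and 48% in TE. At a size of 1 these shares were 96%, 98% and 87%. False calls made up 11.4% of the simulated calls in RNA, 5.78% in RPF and 9.4% in TE. These lie above the rate the calling threshold is set to allow, so the call counts can include more false calls than that. Alternatives were DESeq2 1.42.0, limma 3.58.1 (voom), other scalings, filters and thresholds, the replicate number as a block, and each pool left out. Named transcripts were those called in both kinds with the smallest larger p, 1 per direction, and the TE call with the smallest p among those of at least 5 CPM in each kind, 1 per direction. The comparison, the members and the lists were chosen with earlier results of these data known. Gene lists and markers could not be tested because IDs were not paired with symbols.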

Additional observations from a re-analysis of the deposited data

Results flagged for a closer look

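By the test of the interaction itself, the change in Rps6 het limbs differed between the Trp53 WT and Trp53 null backgrounds for 1376 transcripts in RNA, 857 in RPF and 44 in TE. Among the named transcripts, the change of ENSMUST00000020576.7 was more positive in Trp53 WT by 3.05 in RNA and 3.49 in RPF on the log2 scale. That of ENSMUST00000000476.14 was more negative in Trp53 WT, with interactions of -0.96 in RNA and -0.89 in RPF. The TE change of ENSMUST00000102926.4 differed by -1.55 and that of ENSMUST00000029727.7 by 1.02. The latter difference, 0.9 to 1.16 over the 23 refits that gave an adjusted p, missed the threshold in 12 of them.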

How the results depend on the processing

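No interaction of a named transcript changed direction in any refit that gave it an adjusted p, and of their calls only the TE call of ENSMUST00000029727.7 was lost. Leaving out each pool in turn gave 641 to 1806 RNA, 513 to 925 RPF and 15 to 143 TE calls, 227 to 472 called alike in RNA and RPF, and a Pearson r of 0.589 to 0.631. Calls with the Rps6 het, Trp53 WT pools outside the others were then 517 to 1220 in RNA, 463 to 797 in RPF and 13 to 90 in TE, and the estimated shares 38.3% to 48.1%, 26.6% to 32.7% and 1.99% to 12.4%. At an adjusted p under 0.01 the counts were 363, 341 and 16, with 156 called alike and 339, 328 and 15 with the pools outside. Under 0.10 they were 2408, 1333 and 90, with 728 called alike and 50 TE calls with the pools outside. TE calls were 25 with DESeq2, 20 with limma-voom and 212 with no filter, and 19 and 71 in the last 2 had the pools outside. The estimated shares were 35.9%, 17.1% and 0.453% with DESeq2, 24.2%, 17.2% and 2.02% with no filter, and 15.4% for TE with limma-voom. Pearson's r was 0.107 with no filter and 0.676 with at least 1 CPM in each library of a genotype. The cause of these differences was not tested.

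Whether the replicate number pairs genotypes is not given in the labels, and same-numbered pools of different genotypes correlated from -0.181 to 0.126 in RNA and from -0.156 to 0.103 in RPF. With it as a replicate block, 2000 RNA, 1003 RPF and 72 TE interactions were called, including 1372, 853 and 44 of those called without it. With the pool block left out of the TE fit, 10 were called, all 10 with the pools outside, and the estimated share was 2.16%. Of 2 settings chosen after seeing the data, TE restricted to transcripts kept in both kinds gave a share of 15.7%. The other, without 2 Trp53 null pools (Rps6 het pool 3 and Rps6 WT pool 2), gave 434 RNA, 363 RPF and 23 TE calls, 172 called alike, r of 0.585, 400, 345 and 17 calls with the pools outside, and shares of 33.5%, 24.5% and 1.3%. Refits for gene lists were not run because the IDs could not be paired with symbols. Depth limits weak transcripts most: in the lowest bin of RPF level the median standard error of an RPF interaction was 0.388, against 0.0632 in the highest.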
